A study of Homo sapiens with 4 samples.

Results

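Cohesin is the ring-shaped protein complex that holds sister chromatids together from DNA replication until anaphase and folds chromosomes into loops in interphase. The ring is built of the ATPases SMC1A and SMC3, closed by RAD21, and carries 1 of the paralogous subunits STAG1 or STAG2. NIPBL loads the ring and drives loop extrusion, PDS5A and PDS5B regulate its residence on chromatin, and ESCO1 and ESCO2 acetylate SMC3. STAG2 is a gene often inactivated in human cancers. The 10 genes with these symbols were taken from a table of 14431 listed genes, and each had 1 row. They were chosen with the fold changes of this comparison known, because STAG2 had the largest rise on the log2(CPM + 1) scale of all 14199 genes tested. The differences of these 10 genes between the groups are therefore given as a description, without a test.

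RNA was sequenced from HGC27, an undifferentiated human gastric cancer cell line. There were 2 control libraries and 2 of cells given a small interfering RNA against AARS1 (siAARS1). The labels call the controls WT, and the library names call them NC, which they do not spell out. Whether the controls were given a control RNA is not stated there. All 4 cultures were kept in DMEM without glucose, with serum, antibiotics and 25 mM lactate for 24 h per the labels, while the study's text gives another duration. Each group is 1 cell line in 2 libraries, and since separate cultures are not stated, errors measure only the spread between these libraries, which may be technical. Reads in the listed genes numbered 30653210 to 33522573 a library, and 1 read equalled 0.0293 to 0.0324 CPM, a unit of reads scaled to library size. AARS1, listed as AARS, stood at 428 and 417 CPM in the controls and at 292 and 298 CPM with siAARS1. Its mean CPM with siAARS1 was 69.7% of that in control. On the log2(CPM + 1) scale the difference was -0.52. It was -0.75 with each library scaled to the same median, and -0.30 with the trend of transcript GC content and length taken out. Of 5 epithelial markers, KRT8 and CDH1 were listed and KRT18, KRT19 and EPCAM were not, and the summed level of the markers listed was 27.0 to 27.3 CPM in control and 6.14 to 7.29 CPM in siAARS1. Of 4 mesenchymal markers, 3 were listed, VIM, FN1 and ZEB1, with a summed level, nearly all of it VIM, of 5150.1 to 5209 CPM in control and 4704 to 4814 CPM in siAARS1. ZEB1 went the other way, from 6.16 and 6.84 CPM to 50.03 and 52.3 CPM. None of 3 endothelial and 1 of 3 leukocyte markers was listed, the latter CD68 at 0.486 to 1.10 CPM. The part of these marker levels in the results below was not tested.

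STAG1 and STAG2 encode alternative subunits of the same ring, so it matters for the counts whether their transcripts can be told apart. Over 3723 aligned coding bases the STAG2 and STAG1 sequences were 71.2% identical, and the longest identical run was 21 bases. None of the 5169 windows of 50 bases in the STAG2 transcript occurred in a transcript of another gene, and neither did any of the 6006 windows in STAG1. The most alike stretch of 90 coding bases, with the 11 differing bases in capitals, marks how far the paralogs differ where they differ least. Positions count from 1 at the first coding base of the GENCODE v29 transcript, 2639 to 2728 in STAG2 and 2651 to 2740 in STAG1, both on the sense strand.
STAG2: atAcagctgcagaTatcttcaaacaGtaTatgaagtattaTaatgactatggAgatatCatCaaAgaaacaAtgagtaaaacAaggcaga
STAG1: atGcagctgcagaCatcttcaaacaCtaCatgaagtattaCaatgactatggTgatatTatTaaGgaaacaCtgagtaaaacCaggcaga

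The start regions of both STAG genes are shown because their base composition was unlike that of the transcripts. In GRCh38.p14 (RefSeq), the STAG2 window lies at chrX:123960310-123960609 on the plus strand and the STAG1 window at chr3:136752329-136752628 on the minus strand. Each holds 300 bases, the last 50 of them from the start site onward. Capitals mark the CCAAT box (CCAAT, here as ATTGG on the other strand) and the E2F motif (TTCCCGC). The motifs were searched on both strands and those capitalised do not overlap.
STAG2: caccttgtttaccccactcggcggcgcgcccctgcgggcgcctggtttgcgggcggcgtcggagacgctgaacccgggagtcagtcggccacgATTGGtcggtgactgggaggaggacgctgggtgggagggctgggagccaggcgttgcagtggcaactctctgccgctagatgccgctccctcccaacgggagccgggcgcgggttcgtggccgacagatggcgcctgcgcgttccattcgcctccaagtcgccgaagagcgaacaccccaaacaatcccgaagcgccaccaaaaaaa
STAG1: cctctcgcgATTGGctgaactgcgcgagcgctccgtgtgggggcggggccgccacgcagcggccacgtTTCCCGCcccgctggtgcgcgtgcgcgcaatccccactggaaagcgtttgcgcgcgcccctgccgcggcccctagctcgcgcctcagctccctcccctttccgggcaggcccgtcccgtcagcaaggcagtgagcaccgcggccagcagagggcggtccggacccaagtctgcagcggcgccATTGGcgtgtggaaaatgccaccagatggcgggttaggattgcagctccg

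The GC content of these windows was 67.3% in STAG2, whose 2 other start windows had 63.7% and 59.7%, and 71.3% in STAG1, against a median of 58.7% over 35116 promoter windows of the same length. The transcripts had 38.5% and 40.2% GC, against a median of 49.8% over all genes tested. Promoter windows were found for 7 of the 10 genes, with 10 windows in all because STAG2 had 3 start sites and SMC1A 2. The TEAD motif (CATTCC) was in 2 of these 10 windows, in NIPBL and in another start site of STAG2, and in 14.0% of all promoter windows. The CCAAT box was in 5 of 10 and 34.6% of all windows, the E2F motif in 3 of 10 and 6.55%, the ETS motif (CCGGAAG) in 3 of 10 and 10.3%, and the CHR motif (TTTGAA) in 2 of 10 and 15.2%. These counts are of windows and not of genes. The ETS windows were those of NIPBL and both of SMC1A, which overlap each other, and the CCAAT windows included 2 of STAG2. A match is a description of the letters and not a site in use.

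All 10 cohesin genes were higher in siAARS1 than in control, and the lowest siAARS1 library was above the highest control library for each. The groups were separated in the same sense in 38.5% of all genes. In the limma fit 70.7% of all genes were called at an adjusted p under 0.05, 32.6% as higher. A log2 fold change of at least 1 was seen in 9 of the 10, and 10.6% of all genes reached it and were called. Since the genes were chosen on this comparison, these counts are printed beside the background and nothing is read from them. Their median log2 fold change was 2.33, and that of all genes tested was -0.05. Scaling each library to the same median moved the value of all genes to -0.26 and quantile normalization moved it to -0.15, and all 10 cohesin genes stayed higher under both. Values named log2 fold change are differences of log2(CPM + 1), and for low genes they are smaller than the change in CPM itself. CPM is relative to the library, so a rise in these transcripts and a loss of others cannot be told apart, and in bulk RNA neither can a change in the mix of cells and a change in RNA per cell.

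**Figure D1:**
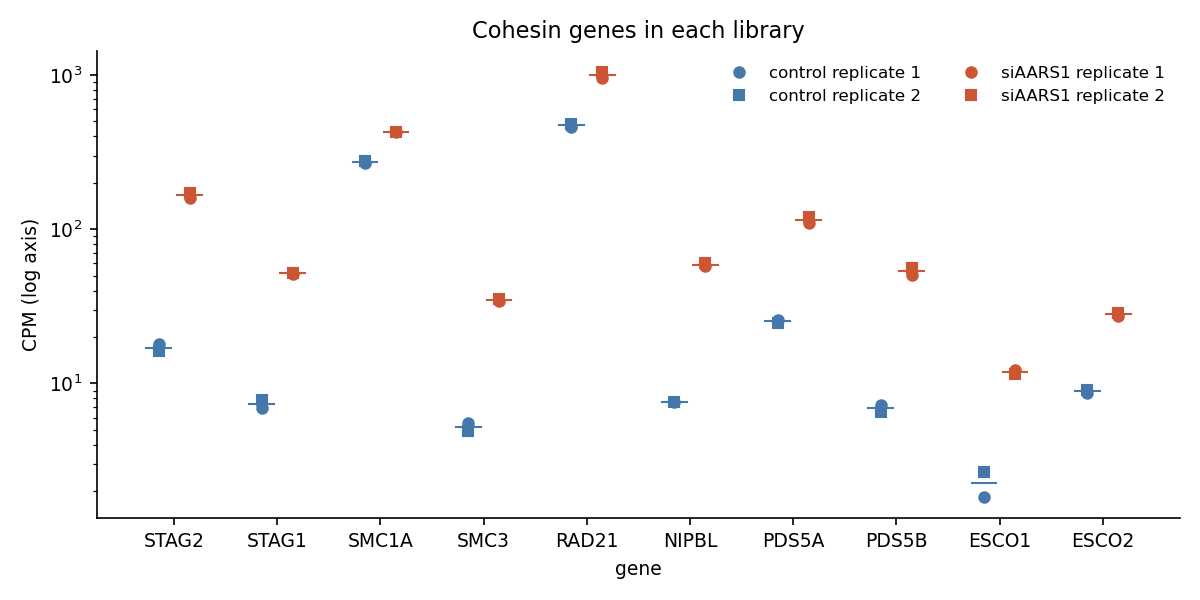
CPM (log axis) of the 10 cohesin genes in each of the 4 libraries, with control in blue and siAARS1 in red, circles for replicate 1, squares for replicate 2 and short lines for the group means. The siAARS1 libraries lie above the control libraries for every gene, by 9.69-fold in STAG2 and 1.56-fold in SMC1A, and RAD21 and SMC1A are the most abundant in both groups.

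STAG2, the STAG subunit most common in dividing somatic cells, measured 18.0 and 16.2 CPM in control, compared with 160 and 171 CPM in siAARS1 (ENSG00000101972; hg38 chromosome X, 123960212 to 124422664, plus strand). The means were 17.1 ± 1.23 and 166 ± 7.75 CPM (SD, n = 2), a 9.69-fold difference and a log2 fold change of 3.20 (SE 0.0575). In fold of mean CPM, STAG2 stood at rank 13 of 14199 genes rather than first. STAG1, which takes the place of STAG2 in other copies of the ring, had 6.89 and 7.79 CPM in control libraries against 51.2 and 52.1 CPM under siAARS1 (ENSG00000118007; chromosome 3, 136336233 to 136752403, minus strand). The fold of mean CPM was 7.04, at rank 98, and the log2 fold change 2.66 (SE 0.0787), at rank 67. Both STAG genes were thus several-fold higher, and STAG2 was higher by more. Per kb of transcript the STAG2 to STAG1 ratio was 3.03 and 2.42 in control and 3.63 and 3.82 in siAARS1, so the groups did not overlap, though the control libraries differed from each other by as much as the higher of them did from siAARS1. STAG2 made up 75.2% and 70.8% of the summed STAG1 and STAG2 level per kb in control and 78.4% and 79.2% in siAARS1. With the union of all exons as the length these shares were 71.4%, 66.6%, 75.0% and 75.9%. STAG3, the STAG paralog of meiosis, stood at 9.94 and 9.27 CPM in the controls and at 9.07 and 8.54 CPM with siAARS1, at -0.11 on the log2 scale which missed the cut-off (limma adjusted p = 0.329). It passed as lower under median scaling (-0.32, limma adjusted p = 0.00623) and quantile normalization (-0.32, limma adjusted p = 0.00804), and was at 0.09 once the trend with transcript GC content and length was taken out.

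Exons of neighbouring genes on the other strand cover parts of both STAG genes, and the use of strand in counting is not given in the sources used here. TENM1, a teneurin, shares 241 of 8187 exon bases of STAG2, and measured 4.11 and 4.16 CPM in control, compared with 17.8 and 20.1 CPM in siAARS1. Fewer reads were assigned to TENM1 than to STAG2 in every library. PCCB, a subunit of propionyl-CoA carboxylase, shares 1664 of 7846 exon bases of STAG1, or 21.2%. PCCB had 99.5 and 95.8 CPM in control libraries against 82.1 and 80.0 CPM under siAARS1, opposite in direction to STAG1. How reads of these pairs were assigned was not tested.

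The 3 core ring genes differed from each other in level and in change. SMC1A, an ATPase arm of the ring, stood at 270.0 and 278 CPM in the controls and at 427 and 428 CPM with siAARS1 (ENSG00000072501; chromosome X, 53374149 to 53422728, minus strand). Its 1.56-fold difference (log2 fold change 0.64, SE 0.0356) was the smallest of the 10. SMC3, the other ATPase arm, measured 5.54 and 4.95 CPM in control, compared with 34.1 and 35.2 CPM in siAARS1 (ENSG00000108055; chromosome 10, 110567691 to 110604636, plus strand). This was 6.60-fold (log2 fold change 2.51, SE 0.0893). RAD21, the kleisin that bridges the SMC heads and is cut by separase, had 463 and 482 CPM in control libraries against 956 and 1045 CPM under siAARS1 (ENSG00000164754), a 2.12-fold difference (log2 fold change 1.08, SE 0.0402). In fold, the 2 abundant subunits therefore differed less between groups than the scarce one, while in CPM itself the scarce one differed least.

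The proteins of the ring are used in equal numbers, whereas the transcripts were far from equal in these libraries. Per kb of transcript, SMC1A was 20.5 and 23.6 times SMC3 in control and 5.27 and 5.11 times SMC3 in siAARS1. RAD21 was 91.6 and 107 times SMC3 in control and 30.8 and 32.6 times in siAARS1. The gap between SMC3 and its partners was narrower in siAARS1, in libraries that did not overlap. RAD21 to SMC1A moved the other way, from 4.47 and 4.53 to 5.84 and 6.37. With the trend of transcript GC content and length taken out, log2 fold changes were 0.30 in RAD21, 0.35 in SMC1A and 1.57 in SMC3. With that of the coding sequence and 3' UTR taken out they were 0.22, 0.25 and 1.10. RAD21 was thus below SMC1A in both, and SMC3 above both genes. Of the windows of 50 bases in the SMC3 transcript, 8.24% also occurred in AC019097.1, a gene model not among those listed, and in RAD21 2.78% occurred elsewhere. UTP23 shares 518 of 6192 exon bases of RAD21 on the other strand and stood at 54.1 and 57.9 CPM in the controls and at 106 and 107 CPM with siAARS1.

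**Figure D2:**
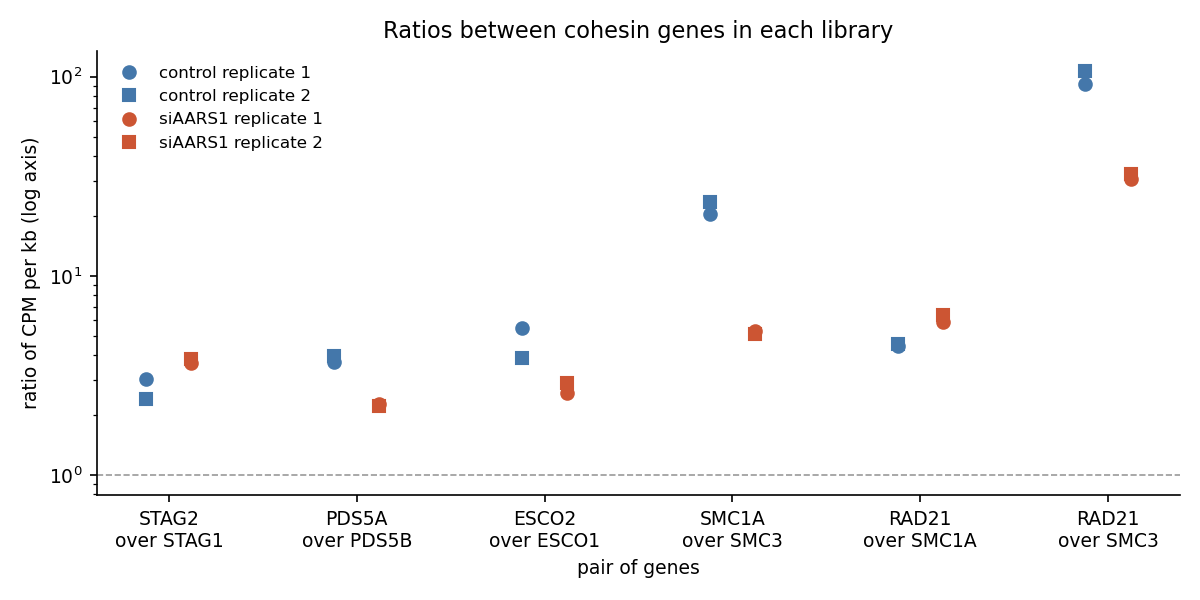
Ratio of CPM per kb of transcript (log axis) between 6 pairs of cohesin genes in each library, with control in blue, siAARS1 in red, circles for replicate 1 and squares for replicate 2. SMC1A over SMC3 is at 20.5 and 23.6 in control and 5.27 and 5.11 in siAARS1, while STAG2 over STAG1 is higher in siAARS1.

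NIPBL, the loader, measured 7.63 and 7.57 CPM in control, compared with 57.5 and 60.6 CPM in siAARS1 (ENSG00000164190; chromosome 5, 36876759 to 37066413, plus strand). It was 7.78-fold higher (log2 fold change 2.80, SE 0.0733), close to PDS5B, and its control libraries were nearly equal. MAU2, which forms the loader with NIPBL, had 112 and 119 CPM in control libraries against 113 and 105 CPM under siAARS1, with groups that overlapped (log2 fold change -0.09, limma adjusted p = 0.107). It was named because it is the partner of NIPBL, after its values were seen. MAU2 passed as lower under median scaling (-0.31, limma adjusted p = 2.04e-06) and quantile normalization (-0.11, limma adjusted p = 0.0472). It passed as higher with the trend of GC content and length taken out (0.23, limma adjusted p = 3.81e-05). The same held with the trends of the coding sequence and 3' UTR taken out (0.15, limma adjusted p = 0.000837).

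PDS5A and PDS5B bind the ring beside the STAG subunits and act with WAPL in release and with the acetyltransferases in stabilisation. PDS5A stood at 25.8 and 24.7 CPM in the controls and at 110.0 and 120.0 CPM with siAARS1 (ENSG00000121892; chromosome 4, 39822863 to 39977956, minus strand), a 4.55-fold difference (log2 fold change 2.14, SE 0.0554). PDS5B measured 7.30 and 6.49 CPM in control, compared with 50.5 and 56.2 CPM in siAARS1 (ENSG00000083642; chromosome 13, 32586427 to 32778019, plus strand), a 7.73-fold difference (log2 fold change 2.78, SE 0.0822). Here the scarcer paralog was higher by more in fold, unlike in the STAG pair. Per kb, PDS5A was 3.69 and 3.98 times PDS5B in control and 2.28 and 2.23 times in siAARS1.

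ESCO1 and ESCO2 acetylate SMC3, ESCO1 through the cell cycle and ESCO2 in S phase. ESCO1 had 1.85 and 2.68 CPM in control libraries against 12.2 and 11.5 CPM under siAARS1 (ENSG00000141446; chromosome 18, 21529281 to 21600884, minus strand), from 63, 85, 376 and 381 reads. It was the least abundant of the 10, and relative to level its control libraries differed most. The difference between groups was 5.22-fold (log2 fold change 1.98, SE 0.132). ESCO2 stood at 8.74 and 9.05 CPM in the controls and at 27.4 and 28.8 CPM with siAARS1 (ENSG00000171320), a 3.16-fold difference (log2 fold change 1.56, SE 0.0828). Of its windows of 50 bases 5.76% also occurred in transcripts of other genes. Per kb the ESCO2 to ESCO1 ratio was 5.45 and 3.89 in control and 2.60 and 2.90 in siAARS1.

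Across the 10 genes the summed CPM was 815 and 839 in control and 1886 and 2009 in siAARS1. RAD21 and SMC1A made up 89.97% and 90.5% of that sum in control and 73.3% in each siAARS1 library. Without them the sum was 81.7 and 79.5 CPM in control but 503 and 536 CPM in siAARS1. In control the order of levels per kb was RAD21 (126), SMC1A (28.0), PDS5A (3.52), STAG2 (3.28), ESCO2 (2.27), SMC3 (1.28), STAG1 (1.21), PDS5B (0.920), NIPBL (0.728) and ESCO1 (0.500). The replicate ranges of PDS5A and STAG2 overlapped, as did those of SMC3 and STAG1. In siAARS1 STAG2 (31.8 CPM per kb) stood next below SMC1A, above PDS5A (16.0) where SMC1A was at 43.7. STAG1 (8.53) and SMC3 (8.42) overlapped there, as did ESCO2 (7.17) and PDS5B (7.12). Lengths were those of 1 GENCODE transcript a gene, and the libraries may hold others. With the union of all exons as the length, RAD21 was at 76.3 and ESCO2 at 1.12 CPM per kb in control, SMC3 (1.23) stood above ESCO2, NIPBL (0.606) stood above PDS5B (0.522), and STAG2 (2.09) and PDS5A (2.07) overlapped. In siAARS1 SMC3 (8.10) then stood above STAG1 (6.58), and NIPBL (4.71) and PDS5B (4.04) above ESCO2 (3.53).

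The 3 genes nearest to STAG2 in log2(CPM + 1) over the 4 libraries were USP34, BCLAF1 and PTPN13, at Euclidean distances of 0.362, 0.441 and 0.447. USP34, a deubiquitinase, measured 19.1 and 18.3 CPM in control, compared with 137 and 147 CPM in siAARS1. BCLAF1 had 15.1 and 16.5 CPM in control libraries against 134 and 142 CPM under siAARS1. PTPN13, a tyrosine phosphatase, stood at 18.7 and 20.1 CPM in the controls and at 140 and 141 CPM with siAARS1. With 4 libraries in 2 groups, this likeness says that levels and differences were near those of STAG2.

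The transcripts of 9 of the 10 cohesin genes were in the lowest quintile of GC content, with SMC1A in the middle one. As GC content ran with the fold change over all genes, it is not independent of the choice of these genes. Their transcript GC content was 36.1% to 47.1% with a median of 39.2%, against 49.8% in all 13819 genes tested with a transcript. Their median length was 5637 bases, against 2975. In the coding sequence GC at the last base of each codon had a median of 34.9%, against 59.4% in all coding genes tested, and SMC1A stood apart at 64.8%. Alanine codons made up 4.17% (ESCO1) to 7.78% (PDS5A) of the coding sequence, with a median of 5.76% against 7.0% in all coding genes tested. Spearman's rho between GC content and log2 fold change over all genes was -0.65, and over the 10 cohesin genes it was -0.36. Genes share libraries and composition, so these values describe these libraries. Apart from SMC1A and PDS5A, the GC content of the 10 lay within 36.1% and 40.7%, where log2 fold changes ran from 1.08 (RAD21) to 3.20 (STAG2).

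**Figure D3:**
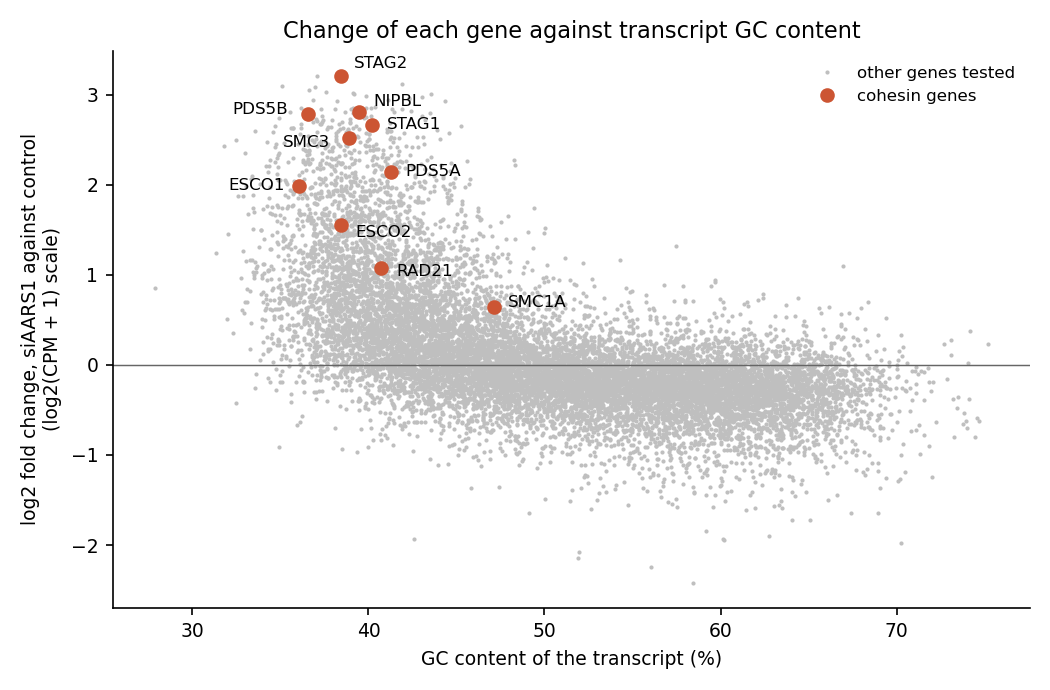
Log2 fold change of siAARS1 against control on the log2(CPM + 1) scale for each gene tested, against the GC content of its transcript in percent, with cohesin genes in red and all others in grey. Genes with low GC content extend upward, STAG2 is at the top at 38.5% GC, and SMC1A is the cohesin gene with the highest GC content, 47.1%.

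The cohesin genes are given beside genes of like GC content and length, whose median was above 0 for 9 of the 10 and below it for SMC1A. STAG1, STAG2, SMC3, NIPBL, PDS5A, PDS5B and ESCO1 fell in the lowest quintile of GC content and the longest tertile of transcripts, where the median log2 fold change of 1464 genes was 1.03. All 7 lay above it, from 1.98 to 3.20. RAD21 and ESCO2 fell in the lowest quintile and the middle tertile, where the median of 833 genes was 0.66 and their own values were 1.08 and 1.56. SMC1A, at 0.64, fell in the middle quintile and the longest tertile, where the median of 869 genes was -0.06.

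Taking out the smooth trend with transcript GC content and length in each library, the transcript correction, lowered all 10 values and kept all 10 above 0. STAG2 moved to 2.0 (SE 0.0553), STAG1 to 1.61, SMC3 to 1.57, NIPBL to 1.45, PDS5B to 1.33, PDS5A to 1.09, ESCO1 to 0.90, ESCO2 to 0.57, SMC1A to 0.35 and RAD21 to 0.30. Taking out the trends with composition and length of the coding sequence and of the 3' UTR, the coding correction, gave 1.67 for STAG2, 1.43 for STAG1, 1.12 for PDS5B, 1.10 for SMC3, 0.99 for NIPBL, 0.67 for PDS5A, 0.66 for ESCO1 and 0.25, 0.25 and 0.22 for ESCO2, SMC1A and RAD21. STAG2 remained the highest of the 10 and RAD21 became the lowest under both. STAG2 was no longer the highest of all genes, whose largest value was 2.44 after the transcript correction and 2.26 after the coding correction. The distance of STAG2 from STAG1 was 0.54 on the deposited values, 0.39 after the first correction and 0.24 after the second. Such corrections also remove any change that runs with composition, and the part of composition in the results was not tested.

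**Figure D4:**
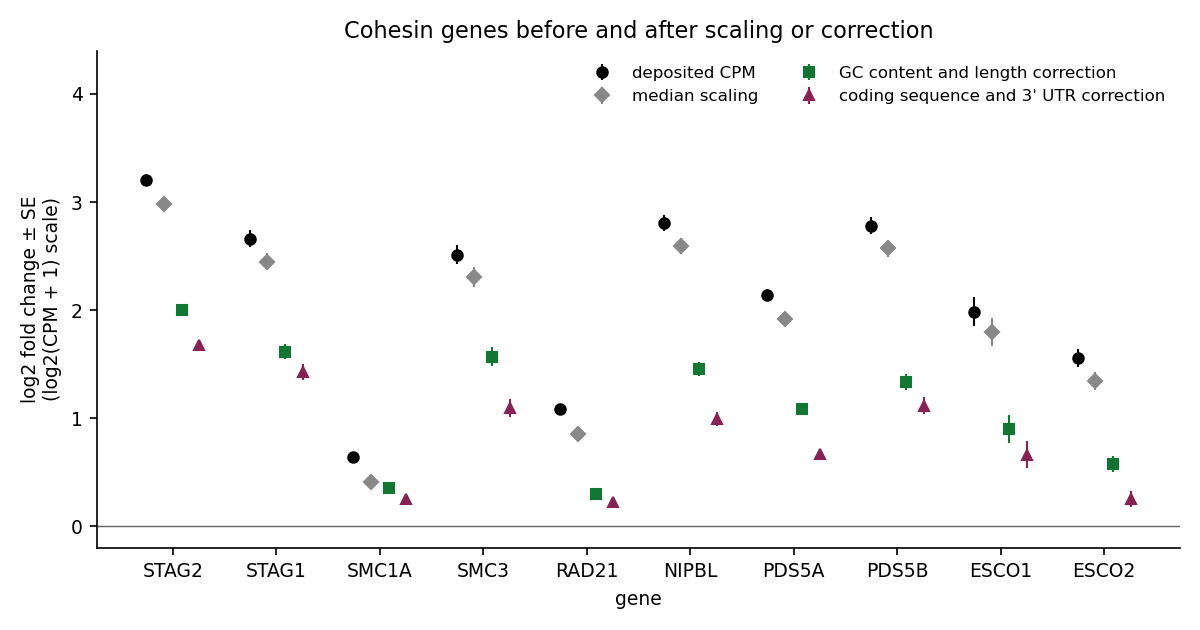
Log2 fold change ± SE (2 libraries a group, limma) of each cohesin gene on the deposited CPM, after median scaling, after the transcript correction and after the coding correction. All points lie above 0, STAG2 moves from 3.20 to 2.0 and 1.67 under the corrections, and RAD21 from 1.08 to 0.30 and 0.22.

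The regulators, of loading, release and loop boundaries, of the fork, of mitosis and of meiosis, were mixed in direction. Of 27 genes on this list, 25 were listed and tested, with 9 higher, 7 lower and 9 not called in limma, against 32.6% of all genes called higher and 38.0% called lower. Their median log2 fold change was -0.00, against -0.05 for all genes. Under median scaling 8 were called higher and 16 lower, beside 23.8% and 56.3% of all genes. After the transcript correction 18 were called higher and 2 lower, beside 32.7% and 33.6% of all genes, and the median was 0.23 against -0.01. After the coding correction 11 of 24 were called higher and 7 lower, beside 36.5% and 35.8% of all genes.

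Among genes of loading, release and loop boundaries, WAPL and CTCF rose. WAPL (listed as WAPAL), which opens the ring to release it, measured 21.0 and 24.8 CPM in control, compared with 65.8 and 74.1 CPM in siAARS1, 1.57 higher on the log2 scale (limma adjusted p = 2.06e-14). It was 0.53 and 0.20 after the first and second correction. CTCF, the DNA-binding protein at which extruding cohesin halts, had 83.8 and 86.9 CPM in control and 118 CPM in each siAARS1 library, 0.46 higher on the log2 scale (limma adjusted p = 4.71e-09). It changed little with the corrections, at 0.44 and 0.35, and was 0.24 under median scaling.

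Among genes that establish cohesion at the replication fork, WDHD1 had the largest rise and CHTF8 the largest fall. WDHD1, a hub of the replisome, rose from 15.2 CPM in each control library to 87.0 and 91.7 CPM (log2 fold change 2.48, limma adjusted p = 4.06e-19), and was at 1.18 and 1.07 after the first and second correction. CHTF8, of the alternative clamp loader, had 145 and 149 CPM in control libraries against 122 and 117 CPM under siAARS1, at -0.29 on the log2 scale (limma adjusted p = 2.2e-06), and was -0.03 after the first correction and 0.08 after the second. CDCA5, or sororin, which counters WAPL on acetylated cohesin, stood at 91.8 and 92.6 CPM in the controls and at 95.7 and 88.3 CPM with siAARS1. It was at -0.00 on the log2 scale and did not pass (limma adjusted p = 0.946). It was -0.23 and past the threshold under median scaling, and 0.32 and 0.33 and past it after the corrections.

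Among genes that protect or cleave cohesin in mitosis, SGO2 had the largest rise called and PTTG1 the largest fall. SGO1 (listed as SGOL1, 1.14) and BUB1 (0.85) were also called higher on the log2 scale. AURKB (-0.41), CDC20 (-0.28), PPP2R1A (-0.22) and PLK1 (-0.15) were also called lower. Of the 10 mitotic genes 3 were called higher and 5 lower, beside 32.6% and 38.0% of all genes. After the first correction 6 were called higher and 2 lower, beside 32.7% and 33.6%. After the second these were 2 and 4, beside 36.5% and 35.8%. There SGO1 was at -0.07 and not called, and BUB1 at -0.18 and called lower (limma adjusted p = 0.000271). SGO2 (listed as SGOL2), a shugoshin that shields centromeric cohesin, measured 1.99 and 3.12 CPM in control, compared with 19.6 and 22.7 CPM in siAARS1, 2.65 higher on the log2 scale (limma adjusted p = 8.66e-14), and at 1.51 and 0.92 after the corrections. PTTG1, or securin, the inhibitor of separase, had 133 and 131 CPM in control libraries against 92.7 and 93.3 CPM under siAARS1, at -0.50 on the log2 scale (limma adjusted p = 6.9e-10). PTTG1 stayed lower after both corrections, at -0.37 and -0.65. Of the 4 meiotic cohesin subunits 2 were listed, STAG3 and REC8, and neither passed the threshold on the deposited values. REC8, at 1.04 to 1.49 CPM, passed as higher after the first correction (0.37, limma adjusted p = 0.0442) and the second (0.42, limma adjusted p = 0.0216).

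Condensin and SMC5/6, the other complexes built on SMC ATPases, were mixed in direction. Of 14 subunits tested, 7 rose, 3 fell and 4 were not called, beside 32.6% of all genes called higher and 38.0% lower, with a median log2 fold change of 0.17. Under median scaling 6 were called higher and 7 lower, beside 23.8% and 56.3% of all genes. SMC2, an ATPase of condensin, rose from 10.8 and 10.6 CPM to 90.2 and 98.3 CPM (log2 fold change 3.03, limma adjusted p = 7.88e-20), and was at 1.69 and 1.40 after the corrections. SMC6, of SMC5/6, rose from 8.62 and 7.82 CPM to 51.6 and 59.8 CPM (log2 fold change 2.62, limma adjusted p = 2.63e-17), and was at 1.38 and 0.97 after them. NCAPD2, a HEAT subunit of condensin, was at -0.19 (limma adjusted p = 7.4e-05), at 0.00 after the first correction and at -0.31 after the second (limma adjusted p = 2.53e-11). NSMCE1, of SMC5/6, was at -0.49 (limma adjusted p = 3.9e-08), at -0.24 after the first correction and -0.10 after the second. After the transcript correction 7 of the 14 were called higher and 4 lower, beside 32.7% and 33.6% of all genes, and after the coding correction 6 and 6, beside 36.5% and 35.8%. The median transcript GC content was 42.4% in the 14 subunits and 53.8% in the regulators.

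**Figure D5:**
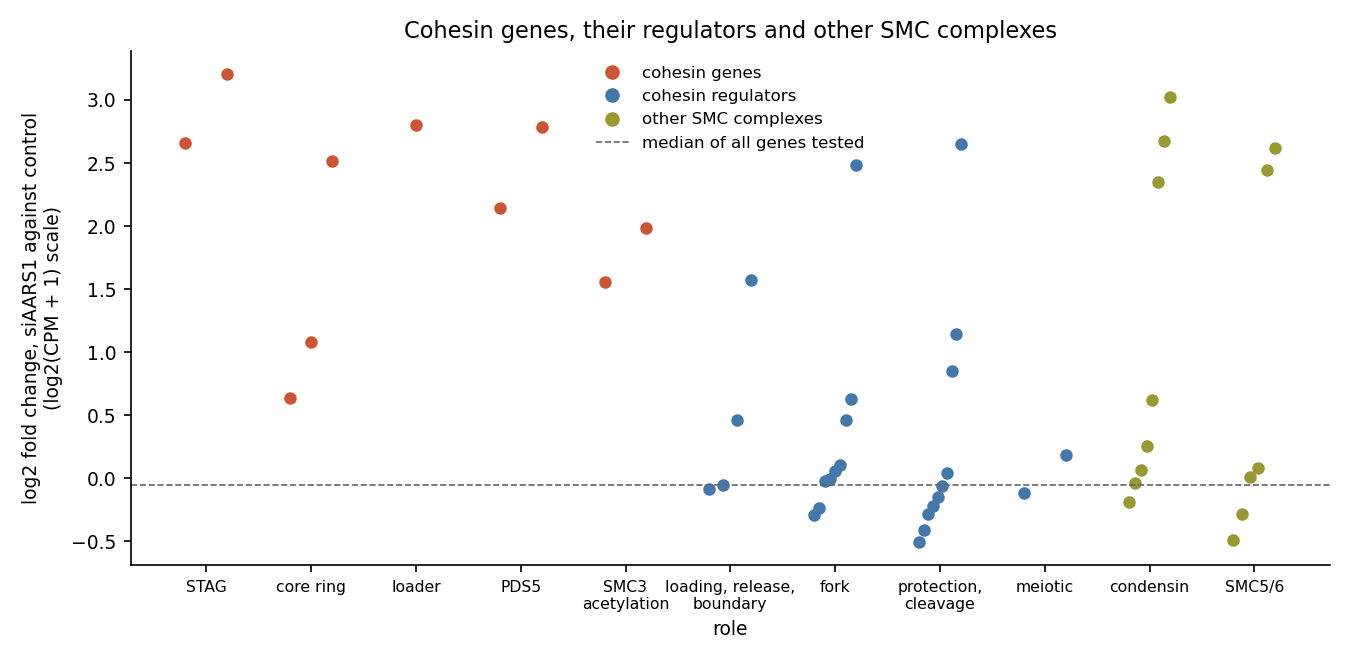
Log2 fold change of siAARS1 against control on the log2(CPM + 1) scale for cohesin genes (red), cohesin regulators (blue) and subunits of condensin and SMC5/6 (olive), each point a gene placed by its role, with the median of all genes tested as a dashed line at -0.05. The 10 cohesin genes lie between 0.64 and 3.20, and the regulators between -0.50 (PTTG1) and 2.65 (SGO2).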

How the data were processed

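The cohesin genes and all gene lists were chosen with earlier results of these data known. The authors deposited 1 table of CPM values, with a column for each of the 4 libraries. Their processing notes name RSEM 1.3.3 and hg38, without a role, and the aligner, annotation, strand setting and filter are not given in the sources used here. Every listed gene had over 1 CPM in at least 1 library. Dividing by the CPM of 1 read gave whole numbers for 100% of the deposited CPM values (tolerance 0.05 reads beyond print rounding), so reads could be recovered. Replicates differed by more than sampling noise (chi-square per gene 3.63 in control, 3.62 in siAARS1), and all libraries were used. Group differences of log2(CPM + 1) were fitted with limma 3.58.1 in R 4.3.3, using trended eBayes variances and no covariate, for the 14199 genes whose mean reached 1 CPM in control or siAARS1. P-values were Benjamini-Hochberg adjusted over all of them at 0.05. edgeR 4.0.16 and DESeq2 1.42.0 were run on recovered reads. Composition, length and positions came from GENCODE v29 (hg38), with the transcript of the longest coding sequence, for 97.2% of listed genes. The trends were fitted with mgcv 1.9.3 as each library's deviation from the gene mean. Promoter windows were RefSeq's (GRCh38.p14), and coding sequences were aligned with biopython 1.88. Genes named besides the 10 were AARS1, TENM1, STAG3, CDCA5, WAPL, CTCF, the called gene with the largest rise and fall in each role, and the 3 nearest to STAG2. PCCB, UTP23, MAU2, REC8, SGO1, BUB1, AURKB, CDC20, PPP2R1A and PLK1 were added after their values were seen. So were SMC4, SMC5, NCAPG, NCAPG2, NCAPD3 and NSMCE3.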

Additional observations from a re-analysis of the deposited data

How the results depend on the processing

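All 10 cohesin genes were higher in siAARS1 under every alternative run: a pseudocount of 0.1, no filter, median scaling, quantile normalization, the replicate block, leaving out each library, edgeR and DESeq2 on recovered reads and both composition corrections. The log2 fold change of STAG2 (3.20) was 2.98 under median scaling, 3.08 under quantile normalization, 3.31 in edgeR, 3.33 in DESeq2, 2.0 after the transcript correction, 2.0 when that was joined to the replicate block, and 1.67 after the coding correction. Leaving out 1 library gave 3.14 to 3.27. The distance of STAG2 from STAG1 (0.54; 0.40 to 0.69 without 1 library) moved beyond the replicate spread only under those corrections, to 0.39, 0.39 with the block, and 0.24. It was not tested whether composition is the cause. Numbers of called genes stayed within 1.5 times of 10032 of all genes (4633 higher, 5399 lower; under median scaling 3379 higher, 7999 lower), 16 of the regulators and 10 of the condensin and SMC5/6 subunits. The labels do not say that equal replicate numbers mark pairs, and the correlation across genes of their deviations from the group means was 0.118, over 2 pairs. The replicate block left STAG2 at 3.20 and called 10389 of all genes. That each group held 2 libraries limits the precision of every value.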
